A study of Mus musculus with 2 samples.

Results

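The endoplasmic reticulum (ER) folds the proteins a cell secretes or places in its membranes. The 36 genes described here encode its chaperones and folding enzymes, the channel and signal peptidase through which proteins enter, the machinery that removes misfolded proteins, and the sensors that watch over folding. They were given as a list of gene symbols, with no threshold on a measured level, and were found in the deposited gene tables by Ensembl identifier. All 36 were present among 43346 genes. The RNA came from the gonadal fat pad, the white fat attached to the gonads, of adult C57BL/6J mice aged 8 weeks. It was polyadenylated RNA read in 2 libraries, biological replicates 1 and 2 of 1 group, and no treatment or altered allele is named for it. The labels give pooled male and female littermates and the same donor identifier for both libraries, so the number of mice behind each is not stated. There was no second condition, so differences between the libraries are described without a test.

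Separate branches of signalling connect folding in the ER to transcription. The kinase and nuclease Ire1 (Ern1) removes a short intron from Xbp1 RNA, the kinase Perk (Eif2ak3) slows translation and favours Atf4, and Atf6 is cut in the Golgi to release a transcription factor. Together these branches raise chaperones, oxidoreductases and degradation factors when unfolded proteins accumulate, and secretory tissues run the same programme at a high level without injury.

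Promoter sequences are shown first, because the ER stress response element (ERSE), to which Atf6 binds with NF-Y, was defined in genes of this kind. RefSeq promoters on GRCm38.p6, from 250 bases before to 50 bases after the start of each gene, were matched for 31 of the 36 members. The letters of ERSE, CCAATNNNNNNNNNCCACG, were searched on both strands and were found in 9 of these 31 promoters (29%) against 37 of 27025 genes (0.137%). The ERSE-II letters, ATTGGNCCACG, were found in 2 members, Dnajb11 and Herpud1, and in 12 of the 27025 genes. The letters TGACGTGG, bound by Xbp1 and Atf6, were in no member promoter and in 193 genes (0.714%). A match is a description of letters and not evidence of binding, and these windows are short. The matches below run 5′ to 3′ on the strand of the gene, with 5 bases on either side, and capitals mark the motif. They include Hsp90b1, the member with 2 matches, and the lectin chaperones Calr and Canx. In Hspa5, one GENCODE transcript starts upstream of the match, at position 34771970.
Hspa5, chr2:34772020-34772048, plus strand: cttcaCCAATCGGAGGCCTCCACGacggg
Hsp90b1, chr10:86705633-86705661, minus strand: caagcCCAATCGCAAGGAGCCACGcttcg
Hsp90b1, chr10:86705528-86705556, minus strand, motif reversed: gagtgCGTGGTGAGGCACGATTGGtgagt
Calr, chr8:84847070-84847098, minus strand, motif reversed: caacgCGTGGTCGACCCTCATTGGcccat
Canx, chr11:50325795-50325823, minus strand: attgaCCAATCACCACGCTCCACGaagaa
Pdia6, chr12:17266486-17266514, plus strand: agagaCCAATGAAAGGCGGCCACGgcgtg
Syvn1, chr19:6046527-6046555, plus strand: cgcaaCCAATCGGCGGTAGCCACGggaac
Herpud1, chr8:94386372-94386392, plus strand, ERSE-II: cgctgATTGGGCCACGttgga
The other promoters with ERSE were those of Dnajc3, Creld2 and Ero1lb.

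The ends of the coding sequences show which members carry a KDEL-type signal, by which proteins that leave the ER are returned from the Golgi. In GENCODE M21, the last 4 codons of the leading coding transcript spelled KDEL itself in 5 of 35 members: Hspa5, Hsp90b1, Calr, P4hb and Pdia6. In 12 of 35 the final pair of codons was that of the wider family, for an acidic residue followed by leucine. The other 7 were Hyou1, Sdf2l1, Manf, Creld2, Pdia3, Pdia4 and Pdia5. All 12 came from the chaperones, their cofactors and the disulfide isomerases. How often the coding sequences of all genes end in either way was not counted. Below, the last 4 codons are in capitals and the stop codon is in lower case, with Canx, a membrane protein that lacks the signal, for comparison.
Calr-201: AAGGATGAGCTGtag
Hspa5-202: AAAGATGAGTTGtag
Sdf2l1-201: CACGATGAACTCtga
Manf-202: CGGACTGATCTGtag
Pdia3-201: CAAGAGGACCTCtaa
Canx-201: CCACGAAGAGAGtga

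All 36 members were expressed, meaning 1 TPM or more in both libraries, compared with 61.6% of protein-coding genes. TPM is a level per transcript length, scaled to the same total in each library, and values are given for replicate 1 and then replicate 2. The median over the members was 127.3 and 82.1 TPM, against 15.27 and 13.7 TPM over the 13235 expressed protein-coding genes. In both libraries 32 members lay above that median and 15 in the top decile of those genes. At least 607 fragments in replicate 1 and 453 in replicate 2 stood behind every member. Their shared fraction of all gene counts was 0.832% and 0.648%. Gene TPM spanned 185-fold in replicate 1 and 282-fold in replicate 2 from the lowest to the highest member. The highest was Hspa5, with 76.2% and 66.3% of its gene TPM on a short transcript of 477 nt.

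**Figure D1:**
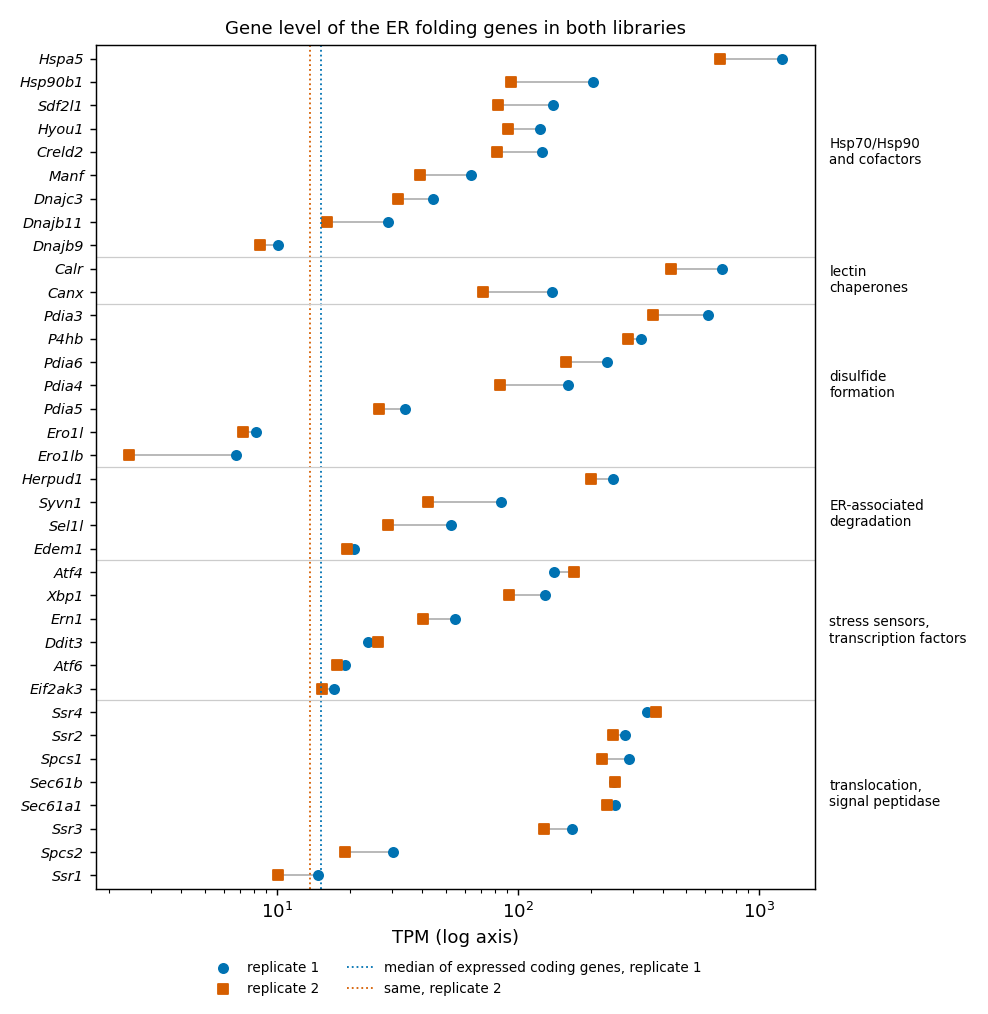
TPM of each of the 36 genes (log axis) in replicate 1 (blue circles) and replicate 2 (orange squares), ordered by role and, within a role, by mean level. Dotted lines mark the medians of expressed protein-coding genes, 15.27 and 13.7 TPM; for 32 genes the square lies to the left of the circle.

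Among the Hsp70 and Hsp90 chaperones of the ER, Hspa5 (BiP, chromosome 2, 34771970 to 34777547 on mm10) had the highest gene level of all members, 1250 TPM in replicate 1 and 686 TPM in replicate 2. Hsp90b1 (Grp94, chromosome 10, 86690209 to 86705509), the Hsp90 of the ER, stood at 205.6 and 93.6 TPM. Both were higher in replicate 1, by 1.82-fold and 2.18-fold on the scale of TPM + 1. BiP works in a cycle of ATP hydrolysis that J-domain proteins start and exchange factors end. Of its exchange factor Hyou1 (Grp170) there were 123.7 and 90.5 TPM. The J-domain genes were lower and unequal: Dnajc3 had 44.4 and 31.9 TPM, Dnajb11 28.9 and 16.1 TPM, and Dnajb9 10.1 and 8.51 TPM. Dnajb11 and Dnajc3 deliver unfolded clients to BiP, while Dnajb9 is best known for its role in degradation and in restraining Ire1.

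The smaller cofactors of this group were abundant. Sdf2l1, which acts with Dnajb11 in the BiP cycle, was at 139.9 and 82.5 TPM. Creld2, a stress-induced protein of the ER, was at 125.7 and 81.7 TPM. Manf, which binds BiP and can be secreted as a trophic factor, was at 63.7 and 39.3 TPM. All 9 genes of the group were higher in replicate 1 by TPM, as were 64.8% of all genes by any amount. Of the 9, 6 passed 1.5-fold, against 9.46% of all genes. With counts scaled by TMM, a normalization that sets the bulk of genes level, 4 passed, against 5.87% of all genes.

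Calr and Canx hold glycoproteins by their trimmed sugars until folding is complete, Calr in the lumen and Canx in the membrane. By gene TPM, Calr was second only to Hspa5 in both libraries, with 700.9 and 432.8 TPM. On coding transcripts alone Calr was above Hspa5, at 685.5 and 420.3 TPM against 281.4 and 214.7 TPM. Canx stood at 138.6 and 71.7 TPM, so the soluble lectin exceeded the membrane lectin 5.06-fold in replicate 1 and 6.03-fold in replicate 2. Both were higher in replicate 1, Calr 1.62-fold and Canx 1.92-fold.

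The disulfide isomerases ranged widely in level, all above the median of expressed protein-coding genes. Pdia3 (ERp57), which joins Calr and Canx to form disulfides in glycoproteins, had 613 and 364 TPM. P4hb, the classical isomerase and also a subunit of the collagen prolyl hydroxylase, had 323 and 286 TPM. Pdia6 had 233.4 and 159 TPM. These gene levels put Pdia3, P4hb and Calr among the 5 most abundant members in both libraries. On coding transcripts alone Pdia3 had 149.2 and 84.8 TPM, below P4hb and below Pdia6 with 212.7 and 141.3 TPM. Pdia4 (ERp72) had 161.3 and 84.5 TPM, and Pdia5 was lowest of the isomerases with 33.9 and 26.5 TPM.

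The oxidases that pass electrons from these isomerases to oxygen were the scarcest members. Ero1l had 8.15 and 7.2 TPM, and Ero1lb had 6.74 and 2.43 TPM. Ero1lb is the form typical of pancreas and other secretory glands. It rested on 1011 and 453 fragments, and its level differed 2.26-fold while that of Ero1l differed 1.12-fold. The ratio of Ero1l to Ero1lb was therefore 1.21 in replicate 1 and 2.96 in replicate 2.

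Of the degradation factors, Herpud1, a membrane scaffold of the Hrd1 complex, had 248.3 and 201.5 TPM. The ubiquitin ligase Syvn1 (Hrd1) had 85.1 and 42.5 TPM, and its partner Sel1l 52.6 and 28.8 TPM. Edem1, which helps trim mannose from proteins bound for degradation, had 20.9 and 19.4 TPM. Syvn1 and Sel1l were higher in replicate 1 by 1.98-fold and 1.8-fold, whereas Edem1 differed by 1.07-fold.

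The stress sensors lay below the median of the members. Ern1 had 54.9 and 40.4 TPM, Atf6 19.2 and 17.7 TPM, and Eif2ak3 17.2 and 15.4 TPM. Of the transcription factors downstream, Xbp1 had 128.9 and 92 TPM and Atf4 140.6 and 170.7 TPM. Ddit3 (Chop), which Atf4 induces and which favours cell death when stress persists, had 23.9 and 26.3 TPM. Atf4 and Ddit3 were the members of this group with the higher value in replicate 2, by 1.21-fold and 1.1-fold. None of the 6 genes passed 1.5-fold. Of all genes 12.9% did in either direction, so few would be counted in a group this small.

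The entry machinery held members of unequal TPM. The channel gene Sec61a1 had 252.5 and 233.6 TPM. Its small partner Sec61b had 250.9 and 252.7 TPM, a ratio to Sec61a1 of 0.994 in replicate 1 and 1.08 in replicate 2. The 4 genes of the translocon-associated protein complex, which aids insertion of some signal peptides, were unequal. Ssr4 had 343.9 and 372.6 TPM, Ssr2 279.4 and 248.5 TPM, Ssr3 168.1 and 128.1 TPM, and Ssr1 14.8 and 10.1 TPM. By TPM, which divides by transcript length, Ssr4 thus exceeded Ssr1 23.2-fold and 37-fold. By fragments the gap was far smaller, with 7598 and 10098 for Ssr4 against 5029 and 4243 for Ssr1. Ssr1 had the longest leading transcript of all members, 9306 nt in the deposited table. Among signal peptidase subunits, Spcs1 had 289.5 and 224 TPM and Spcs2 30.4 and 19.1 TPM. Here too the gap was smaller by fragments, with 5586 and 5246 for Spcs1 against 2944 and 2297 for Spcs2. Their leading transcripts in the deposited table were 702 nt and 2815 nt. For Ssr4 and Sec61b the higher value was in replicate 2, by 1.08-fold and 1.01-fold, and of the 8 genes Spcs2 passed 1.5-fold. That share is near the 9.46% of all genes, and with TMM none of the 8 passed, beside 5.87% of all genes.

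The members were next compared between the libraries as a whole. Genes entered if their expected count averaged at least 20, as did all 36 members and 16920 genes in all. There were 14 members at least 1.5-fold higher in replicate 1 and none at least 1.5-fold higher in replicate 2. Among all genes the same thresholds took 9.46% and 3.49%, and 12.9% in either direction. The 14 were Hspa5, Hsp90b1, Dnajb11, Sdf2l1, Manf, Creld2, Calr, Canx, Pdia3, Pdia4, Ero1lb, Sel1l, Syvn1 and Spcs2. At 2-fold the count was 2, Hsp90b1 and Ero1lb, against 1.55% of all genes. The authors' intervals of TPM, which cover the error of estimation within a library, did not overlap for 33 of 36 members and for 48.1% of all genes. The exceptions were Eif2ak3, Ddit3 and Sec61b.

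Part of that difference was shared by all genes. On the TPM + 1 scale the median log2 ratio of replicate 2 over replicate 1 was -0.11 over all genes and -0.46 over the members. With counts scaled by TMM these medians were 0.003 and -0.28. There 9 members remained at least 1.5-fold higher in replicate 1, against 5.87% of all genes: Hsp90b1, Dnajb11, Sdf2l1, Manf, Canx, Pdia3, Pdia4, Ero1lb and Syvn1. All 9 belong to the 14. By any amount, 29 members were higher in replicate 1 on this scale, against 49.6% of all genes. With TPM summed over coding transcripts alone, 13 of 35 members passed 1.5-fold, against 9.62% of all genes, and the same 9 genes passed on all 3 scales. For Hspa5 the ratio of count shares, replicate 2 over replicate 1, was 0.742, with an exact 95% interval of 0.73 to 0.753 for counting error only. That interval excluded 1 for 31 of the 36 members. The same share over all genes was not computed, and the interval is narrow wherever counts are high. The count is therefore not read as particular to the members. It held 1 for Dnajb9, Ero1l, Edem1, Atf6 and Sec61a1.

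**Figure D2:**
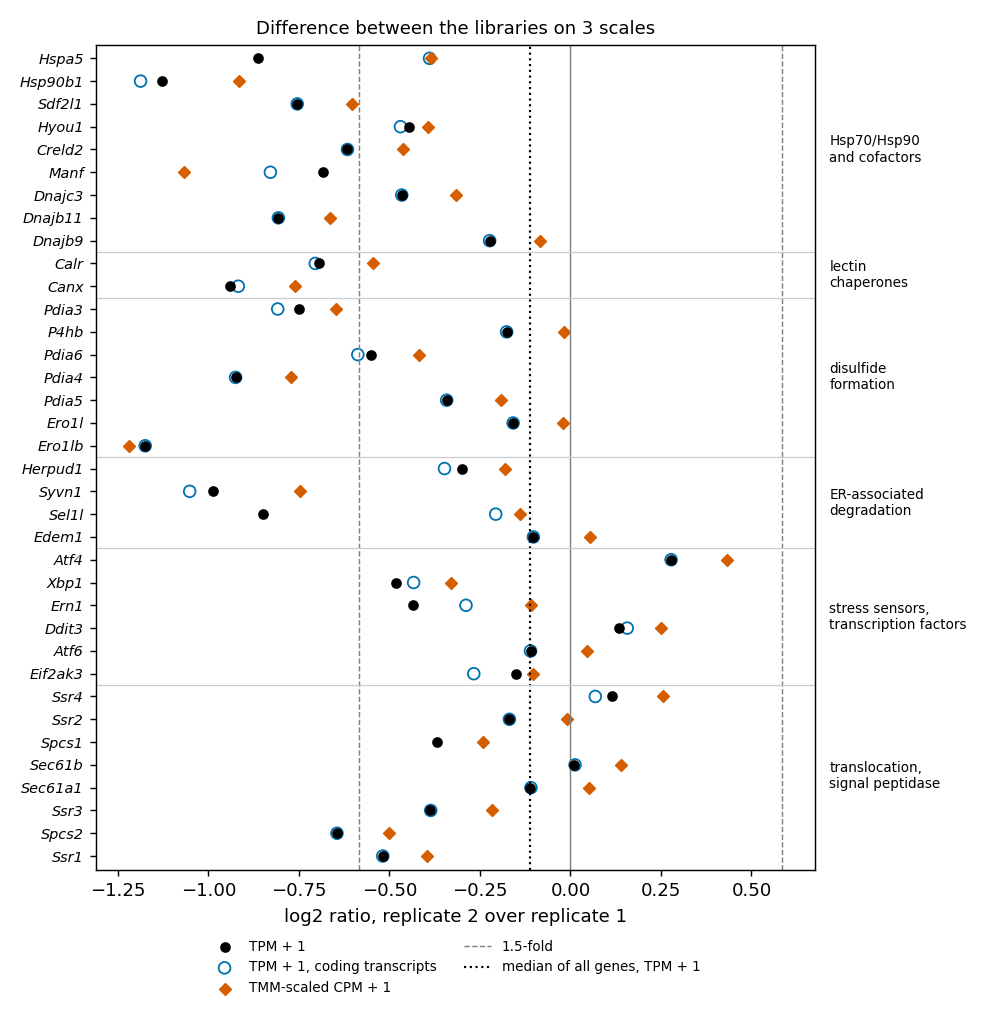
Log2 ratio of replicate 2 over replicate 1 for each gene from TPM + 1 (black), coding TPM + 1 (open blue) and TMM-scaled counts + 1 (orange). Dashed lines mark 1.5-fold and the dotted line the all-gene median of -0.11; Hspa5 and Sel1l move furthest toward 0 from the first scale to the others.

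By role, the difference was uneven. The median log2 ratio from TPM + 1 was -0.82 for the lectins, -0.68 for the Hsp70 and Hsp90 group, -0.58 for degradation and -0.55 for disulfide formation. It was -0.27 for translocation and -0.13 for the sensors and transcription factors, which is close to the all-gene median. With TMM the degradation group moved to -0.16. Beside the 9.46% of all genes at least 1.5-fold higher in replicate 1 by TPM, 8 of the 12 genes with a KDEL-type ending and 6 of the 23 others with a coding sequence were. With TMM, where 5.87% of all genes passed, the counts were 5 and 4. Of the 11 genes with an ERSE or ERSE-II match 8 passed by TPM, and of the 20 matched promoters without one 5 did. With TMM these counts were 5 and 3, and Hspa5, Calr and Creld2 were the motif genes that no longer passed. These counts describe 2 libraries and were not tested.

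The levels of 2 of the 3 members with the highest mean TPM depended on how fragments were divided among annotated transcripts. In Hspa5, Hspa5-204, a transcript of 477 nt annotated as a target of nonsense-mediated decay, carried 76.2% and 66.3% of the gene's TPM. The full-length coding form Hspa5-202 of 2613 nt had 277 and 211.2 TPM, although it took 24751 of 34838 fragments in replicate 1 and 23441 of 29689 in replicate 2. A short transcript gains TPM from few fragments. On coding transcripts alone Hspa5 had 281.4 and 214.7 TPM, below Calr at 685.5 and 420.3 TPM, and its log2 ratio was -0.39 in place of -0.86. Its ratio to Hsp90b1 was 6.08 and 7.34 by gene level but 1.43 and 2.5 by coding level. The coding level leaves out the 9253 and 5360 fragments assigned to Hspa5-204. From which form those fragments came was not tested.

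The deposited junction table, which counts reads that cross each intron, was used to look at these forms. Its 2 columns, R1 and R2, are not tied to the libraries by the labels. The first intron of Hspa5-204, of 82 nt, lies in the leader before the start codon. It is also in Hspa5-201, a coding transcript that starts further upstream and carried 0.36% and 0.5% of the gene's TPM, but not in Hspa5-202. It had 9172 reads in R1 and 5438 in R2, the highest of any member intron. The one intron that only Hspa5-204 has, of 271 nt, was not listed in the table. The intron of 112 nt that the coding transcripts have in its place had 3110 and 2825 reads.

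Pdia3 showed the same arrangement. Pdia3-204, a processed transcript of 400 nt with 1 intron, carried 75.6% and 76.7% of the gene's TPM, or 463.3 and 279.4 TPM. The coding form Pdia3-201 had 149.2 and 84.8 TPM, which leaves out the 3171 and 2291 fragments assigned to Pdia3-204. The intron that only Pdia3-204 has, of 10319 nt, skips the second exon and had 0 reads in R1 and 1 in R2. The intron that joins the first exon to the second, of 8243 nt, had 3997 and 2710 reads. By coding level Pdia3 therefore stood below P4hb, at 323.1 and 285.8 TPM, and not above it. It also stood below Pdia6, at 212.7 and 141.3 TPM.

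**Figure D3:**
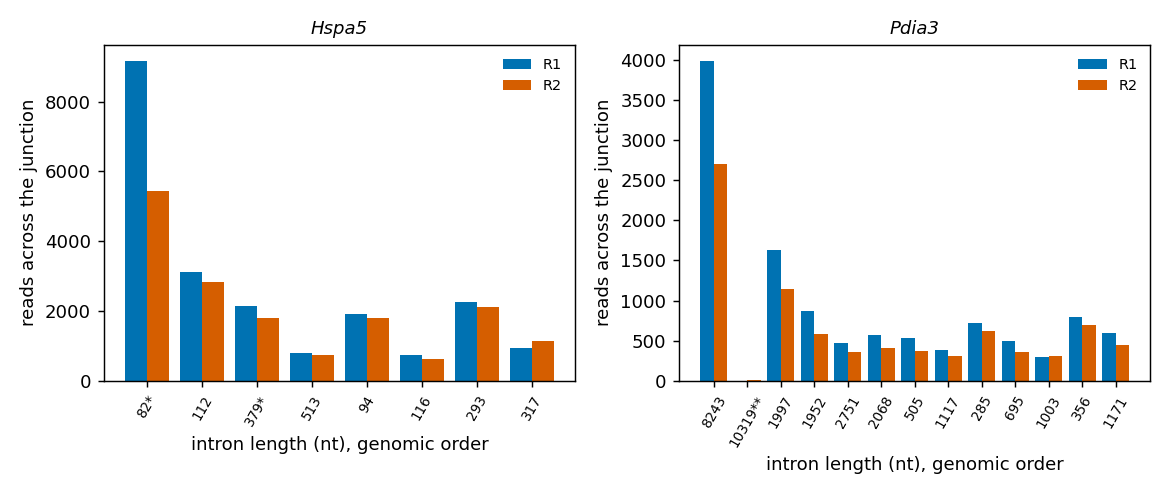
Reads across each listed intron of Hspa5 (left) and Pdia3 (right), in genomic order and named by length, in R1 (blue) and R2 (orange). One asterisk marks introns shared with the short transcripts Hspa5-204 or Pdia3-204, and a double asterisk the intron only Pdia3-204 has, with 0 and 1 reads; the Hspa5-204 intron of 271 nt is not listed and not drawn.

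In 3 more members, coding transcripts held under 80% of the gene's TPM in at least 1 library: Manf, Sel1l and Ern1. Sel1l-206, a retained-intron form of 617 nt, carried 36.5% of Sel1l TPM in replicate 1 and 2.26% in replicate 2, from 287 and 11.9 fragments. Sel1l was 1.8-fold higher in replicate 1 by gene level, but its coding TPM was 29.8 and 25.7 and its log2 ratio -0.21. With TMM-scaled counts the log2 ratio of Sel1l was -0.14. Manf-205, a retained-intron form of 502 nt, carried 32.2% and 39.6% of Manf TPM. The log2 ratio of Manf was -0.68 by gene TPM, -0.83 on coding TPM and -1.07 on TMM-scaled counts. Ern1-205, a processed transcript, carried 26% and 18.1% of Ern1 TPM. Of the 2 introns that only Ern1-205 has, 1 was not listed in the junction table and 1 had 2 reads in each of R1 and R2. Between coding forms, the division of Syvn1 also differed, with Syvn1-204 at 56.6% and 34.2% and Syvn1-203 at 15.9% and 45.8%. The transcripts of Spcs1 in the tables were not matched in GENCODE M21, so it has no coding value.

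Junctions across the members were well represented. By lengths of consecutive introns and exons, 33 of the 36 members were placed in the mm9 table without converting a coordinate, and Dnajb9, Sdf2l1 and Ddit3 were not. Of 429 annotated introns of these 33, 368 were listed with 342471 reads. The irreproducible discovery rate, low where replicates rank a junction alike, was 0.1 or less for 353 of the 368. It was so for 31.9% of all 515046 junctions in the table, which include unannotated junctions and junctions with few reads. The share among annotated introns of other genes with similar read numbers was not computed. The contrast is therefore not read as particular to the members. Reads on junctions absent from the annotation made up 0.51% of those inside members. Ero1lb was apart from this with 11%, most of it 1 junction of 1785 nt with 33 and 29 reads.

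Scaled to the total of junction reads, the median log2 ratio of R2 over R1 was -0.34 over the 33 members and -0.045 over all 118561 junctions with 20 or more reads. The first is per gene, from reads summed over its annotated introns. The second is per single junction, annotated or not, so these medians differ in kind. Among members the log2 ratio ran from -1.27 in Manf to 0.18 in Ssr4. Hsp90b1 stood at -0.97, Canx at -0.86, Pdia4 at -0.77 and Syvn1 at -0.71. These genes were also among the 9 apart on every scale in the gene tables. Hspa5 stood at -0.53, P4hb at -0.22, Sel1l at -0.27 and Edem1 at 0.16. As R1 and R2 are not tied to replicates 1 and 2, and come from the same reads, this is a second description and not a second experiment.

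Xbp1 RNA is the direct readout of Ire1, because removal of 26 nt in the cytoplasm shifts the reading frame. The stretch was found in Xbp1-201 (chromosome 11) between its cleavage motifs, at coding positions 479 to 504, counted from the first base of the start codon. Of 2 stretches that matched the motifs, it was chosen because its removal lengthens the frame, so the longer frame is not a separate result. With the stretch the frame runs for 267 codons and without it for 371. It is printed here with 20 bases on either side, and capitals mark the 26 nt.
Xbp1-201: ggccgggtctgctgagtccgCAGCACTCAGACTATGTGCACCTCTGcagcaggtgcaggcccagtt
Xbp1-201 carried 84.9% and 85.1% of Xbp1 TPM, but no annotated transcript joins the bases on either side of the stretch, so the cut form has no row. The shortest junction in the junction table spans 31 nt, so a gap of 26 nt is not represented there either. The extent of Ire1 cleavage could thus not be read from these files. The 4 annotated introns of Xbp1 had 401, 80, 683 and 1212 reads in R1 and 424, 65, 588 and 1229 in R2.

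Other genes of the secretory pathway were taken from 8 lists of 78 genes chosen by function. Of these, 71 were expressed. Of the 74 with enough counts, 8 were at least 1.5-fold higher in replicate 1 and 2 in replicate 2, beside the 9.46% and 3.49% of all genes. Their median log2 ratio was -0.23 on TPM + 1 and -0.1 with TMM. The oligosaccharyltransferase attaches sugars to proteins in the ER. Its highest genes were Dad1 (636.4 and 637.3 TPM), Rpn2 (409 and 344 TPM) and Ost4 (391.8 and 378.4 TPM). Of its 10 genes, 2 were at least 1.5-fold higher in replicate 1. On TMM-scaled counts none was, beside 5.87% of all genes. Genes of ER export and retrieval were level, with a median log2 ratio of -0.03 and none of 12 past 1.5-fold. The highest were Surf4, a cargo receptor, at 338.6 and 271.4 TPM, Sec31a, a coat subunit, at 284.1 and 263.6 TPM, and Kdelr1, a receptor for the KDEL signal, at 274.7 and 270.9 TPM.

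Among further factors of degradation none of 10 passed 1.5-fold, beside 12.9% of all genes in either direction. Vcp, the ATPase that extracts proteins, had 146.6 and 109.2 TPM, and Derl3 had 126.6 and 91.8 TPM. In glycan trimming and other folding the leading genes were Ppib, a prolyl isomerase, at 355.5 and 300.1 TPM, Txndc5 at 143.3 and 98.7 TPM, and Ganab, a glucosidase subunit, at 104.9 and 83.8 TPM. In this list 2 of 10 passed 1.5-fold, both higher in replicate 1. Of further targeting genes, the highest by the mean of both libraries were Srpr (128.9 and 102.9 TPM), Sec11c (131.5 and 84.3 TPM) and Sec11a (64.5 and 56.7 TPM). Srp54a was listed at 0 in both libraries and has near-identical copies, so its value is uncertain.

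The collagen folding list was divided, with 3 of 8 genes higher in replicate 1 and 5 in replicate 2 by TPM, and 1 and 7 with TMM. Serpinh1 (Hsp47), the collagen chaperone of the ER, had 194.6 TPM in replicate 1 and 327.5 TPM in replicate 2, 1.68-fold higher in replicate 2. Crtap followed with 65.5 and 81.1 TPM and Plod3 with 54.7 and 65.9 TPM. Serpinh1 was the one gene of the list past 1.5-fold, beside 12.9% of all genes in either direction. P4ha2, a prolyl hydroxylase subunit, had 61.9 and 46.2 TPM. The median log2 ratio of the 8 genes was 0.06 and 0.22 with TMM. P4hb, which serves both disulfide formation and proline hydroxylation, was close to level at -0.18 and, with TMM, -0.02.

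Other targets of the stress response had a median of 14.4 and 11.1 TPM, near the 15.27 and 13.7 TPM of expressed protein-coding genes. Creb3 led with 47.9 and 73.5 TPM, then Creb3l2 with 45.4 and 24.7 TPM and Asns, asparagine synthetase, with 29.1 and 24.9 TPM. Creb3l1, a transcription factor of secretory cells, was at 9.06 and 2.79 TPM, 2.65-fold apart. Bhlha15 (Mist1), typical of exocrine cells, was under 1 TPM in both. Of 8 tissue-restricted relatives of the members, 4 were under 1 TPM in both libraries: Ern2, Pdia2, Pdilt and Clgn. The other 4 were Agr2, an isomerase of mucous epithelia, with 113.9 and 47.9 TPM, Sec61a2 with 58.1 and 54.7 TPM, Calr3 with 1.43 and 0.63 TPM and Creb3l4 with 1.02 and 1.08 TPM. Agr2 was 2.35-fold higher in replicate 1.

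**Figure D4:**
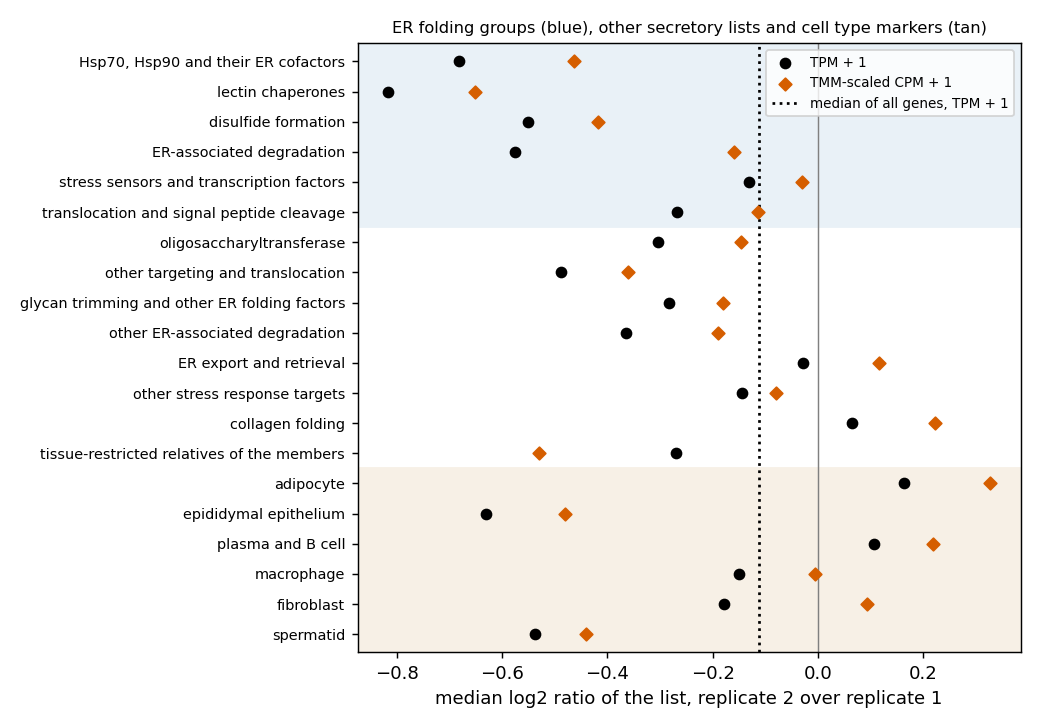
Median log2 ratio, replicate 2 over replicate 1, for the 6 groups of members (blue band), 8 other secretory lists and 6 lists of cell type markers (tan band), from TPM + 1 (black) and TMM-scaled counts (orange). The dotted line is the all-gene median of -0.11; lectin chaperones (-0.82) and epididymal markers (-0.63) lie to the left and adipocyte markers (0.16) to the right.

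Markers of cell types differed between the libraries too. For the labelled tissue, all 8 adipocyte markers were expressed and none was at 0, led by Cfd with 6724 and 3717 TPM and Fabp4 with 2869 and 2744 TPM. They summed to 12724 and 11544 TPM, and 4 were higher in replicate 1 and 4 in replicate 2. Their summed count share was 0.945% in replicate 1 and 1.12% in replicate 2, with Lep, the gene of leptin, at 92.1 and 574.8 TPM and Cidec at 1049 and 2068 TPM. All 8 markers of epididymal epithelium, the lining of the sperm duct that adjoins the male fat pad and a secretory tissue, were also expressed and none was at 0. They summed to 35782 and 23720 TPM, led by Gpx5 with 9518 and 6082 TPM and the defensin gene Defb25 with 6533 and 5298 TPM. Their count share was 2.15% and 1.6%, and 7 of 8 were higher in replicate 1, beside the 64.8% of all genes, with Crisp1 the exception at 1453 and 2545 TPM. At 1.5-fold, 5 were higher in replicate 1 by TPM and 1 with TMM, beside 9.46% and 5.87% of all genes. The 8 spermatid markers summed to 571.3 and 378.9 TPM, led by Prm2 and Tnp2, and all 8 were higher in replicate 1.

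Markers of plasma and B cells, which also express many chaperones, summed to 411.9 and 1043 TPM, led by Ighm with 237.6 and 902.8 TPM and Sdc1 with 103.2 and 72.6 TPM. Mzb1 was under 1 TPM and Jchain at 1.6 and 1.8 TPM. Macrophage markers summed to 564.6 and 665.3 TPM, led by Lyz2 and C1qb, and fibroblast markers to 1314 and 1214 TPM, led by Dcn and Col6a1. The part of any of these cell types in the levels or the differences of the members was not tested. In a bulk sample, fewer cells of a type and less RNA per cell cannot be told apart.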

How the data were processed

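Libraries were strand-specific 76-nt pairs of size-selected polyadenylated RNA, per the labels. Per the file headers, the authors' tables hold the expected count (estimated fragments) of each gene and transcript, with TPM, FPKM, intervals of TPM and each transcript's percent of gene TPM. Build mm10 and GENCODE M4 are named in the accompanying notes. Which aligner and quantifier made them is not given in the sources used here. Expected counts summed to 48206393 and 55138711, of which 2.28% and 1.83% lay outside genes. The deposited mm9 junction table gave the count of reads per junction and a fraction, the irreproducible discovery rate.

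Symbols, positions and coding sequences were from GENCODE M21 and promoters from RefSeq. Ratios were log2 of TPM + 1 for genes whose expected count averaged at least 20, and TMM factors came from edgeR 4.0.16 on rounded expected counts. DESeq2 1.42.0 size factors were an alternative, with other thresholds, a pseudocount of 0.1, FPKM, posterior mean TPM and coding transcripts alone. On simulated data, drawn with counting error only, the fold rule was tested at 2-fold. Named were all members and, of other secretory lists, the 3 highest genes, those under 1 TPM and those over 2-fold apart; of marker lists, the 2 highest, with Crisp1, Lep, Cidec, P4ha2, Mzb1, Jchain and Calr3 added after their values were seen. One gene that the rule names is not reported here. The members and lists were chosen with earlier results of these data known. Protein sequences were not used here, so active sites were not examined. With 2 replicates of 1 group, no p-value was computed, and nothing states that the replicates are separate mice.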

Additional observations from a re-analysis of the deposited data

How the results depend on the processing

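All 36 members were expressed in either replicate alone (36 to 36), and 33 to 36 at thresholds from 0.5 to 10 TPM, by FPKM, by posterior mean TPM or by coding transcripts. The median level, 104.7 TPM over both libraries, was 82.1 to 127.3 TPM with one replicate left out. The 14 members at least 1.5-fold apart became 9 with TMM scaling, 9 with DESeq2 size factors and 2 at a fold of 2; it stayed within 10 to 14 under the other alternatives. The median log2 ratio of -0.456 became -0.279 with TMM and -0.270 with DESeq2 size factors, and stayed below 0 under every alternative run. The direction of all genes together moved as well, from 1600 genes higher in replicate 1 and 590 in replicate 2 on TPM + 1 to 993 and 839 with TMM. No paired analysis was possible because there is 1 group. The smallest gene count of any member was 453 fragments. The junctions listed for members were 368, 353 and 347 at no limit, 0.1 and 0.01 of the discovery rate.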
